A study of Mus musculus with 12 samples.

Results

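The genes described here encode 10 subunits of the complexes that give an epithelial cell its apical and basal ends: Llgl1, Llgl2, Scrib and Dlg1 of the Scribble module, Pard3, Pard6b, Prkci and Prkcz of the PAR complex, and Crb3 and Lin7c of the Crumbs complex. They were chosen by name, with earlier results of these data known, and all 10 were found among the 52636 genes of a table of RNA sequencing read counts. The tissue was the embryonic mouse salivary gland, taken from E13.5 embryos and cultured for 2 days on a permeable membrane, and the counts came from 12 libraries of ribosomal-RNA-depleted total RNA. One experiment compared wild-type glands given the solvent DMSO (3 libraries, called DMSO 1 to 3) with wild-type glands given SU5402 at 2.5 µM, an inhibitor of FGF receptor kinases (3 libraries, called FGFRi 1 to 3). The other compared untreated glands of a K14Cre-Fgfr2b cross, in which Cre driven by the keratin 14 promoter deletes the Fgfr2b receptor isoform. Its WT, HET and HOM groups (wild type, heterozygous and homozygous -/-) had 2 libraries each, with WT and HET named as littermate controls. A deletion of this kind is limited to cells in which the keratin 14 promoter has been active, whereas the inhibitor was added to the culture medium of the whole gland. All 12 libraries carry the same batch label, and whether the libraries of a group are separate embryos or litters is not in the labels. In the titles the libraries of each group share a leading number, whose meaning the titles do not give. The p-values therefore measure only how far these libraries spread, a spread that may be technical.

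Polarity of an epithelial cell rests on complexes that exclude one another from the membrane domain each of them holds. In the PAR complex, the scaffold Pard3 and the adaptor Pard6b hold an atypical protein kinase C, which is Prkci or Prkcz, at the apical side and at forming junctions. The Crumbs complex, built around the small transmembrane protein Crb3, defines the apical membrane, and Lin7c is a PDZ adaptor joined to it through Pals1. The Scribble module of Scrib, Dlg1 and the Lgl proteins Llgl1 and Llgl2 sits on the basolateral side, where Lgl is removed from the apical cortex by phosphorylation through atypical protein kinase C. In the salivary gland, solid epithelial buds and cords form lumens as they branch, and these complexes place the apical surface that lines the lumen.

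Promoters were searched for the E-box CAGGTG, to which repressors of the ZEB and SNAI families bind in epithelial cells, among other factors that share this site. RefSeq windows (GRCm38.p6) matched 8 of the 10 genes, and the 250 bases before the annotated start were read on both strands, so that CACCTG is the same site on the other strand. The promoters of Llgl2 and Scrib were not analysed here. The windows shown are those of Crb3 (chr17:57061951-57062200, plus strand), which held 3 copies, and of Pard6b (chr2:168080754-168081003, plus strand) and Prkcz (chr4:155361429-155361678, minus strand), which held 2 each. They are printed because they carried at least 2 copies at the most upstream annotated start, and because RNA of Crb3 and Pard6b fell with the inhibitor while that of Prkcz did not pass the test. The choice thus used the RNA results, and a link between the E-boxes and those results was not tested. Each sequence runs 5′ to 3′ along the gene, and the capitals mark the E-boxes.
Crb3: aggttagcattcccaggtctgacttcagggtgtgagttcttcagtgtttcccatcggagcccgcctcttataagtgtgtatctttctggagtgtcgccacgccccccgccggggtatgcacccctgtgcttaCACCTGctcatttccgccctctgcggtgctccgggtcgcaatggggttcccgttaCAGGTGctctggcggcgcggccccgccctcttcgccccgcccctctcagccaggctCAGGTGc
Pard6b: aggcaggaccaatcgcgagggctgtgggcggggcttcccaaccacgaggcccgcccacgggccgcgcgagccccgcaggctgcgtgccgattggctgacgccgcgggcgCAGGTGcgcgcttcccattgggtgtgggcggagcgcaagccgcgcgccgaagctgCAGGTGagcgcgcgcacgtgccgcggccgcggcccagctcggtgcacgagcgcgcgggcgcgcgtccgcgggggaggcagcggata
Prkcz: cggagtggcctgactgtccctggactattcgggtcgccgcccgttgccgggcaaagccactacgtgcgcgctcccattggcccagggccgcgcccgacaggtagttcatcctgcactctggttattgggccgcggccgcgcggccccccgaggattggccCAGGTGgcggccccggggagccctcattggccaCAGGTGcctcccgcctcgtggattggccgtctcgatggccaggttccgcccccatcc
Of all 32851 RefSeq windows of this length, 17.2% held at least 1 such E-box, 2.06% at least 2 and 0.247% at least 3. Of the 15 windows of the 8 genes, which overlap in part, 6 held at least 1, and these belonged to 4 genes. An internal Pard3 window also held 3 copies. No copy was found in the 250 bases upstream of Llgl1, Dlg1, Prkci or Lin7c, of which Prkci also fell with the inhibitor. A match says only that these letters are present in the window. The ETS motif CCGGAAGT was found once in the Crb3 window of 300 bases that runs past the start, where 3.89% of all windows held it, and in no window of another of these genes. The grainyhead motif AACCGGTT, present in 0.146% of all windows, was in none of theirs.

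Total counts ran from 6043701 to 22322182 per library. Ribosomal-RNA-like and mitochondrial features took 44.6% of those of FGFRi 1, which stood apart, and 23.0% to 32.5% in the other libraries. Levels are given as CPM, read counts scaled to a common library size, normalized by TMM, which sets the bulk of genes equal between libraries, and a change was called at an adjusted p under 0.05 over all 15859 genes tested (edgeR quasi-likelihood test, Benjamini-Hochberg). Each of 10 genes that mark the salivary gland, among them Sox10 at 85.9 to 205 CPM and Elf5 at 75.8 to 133 CPM, was read in every library. Fgfr2 was read at 99.2 and 101 CPM for WT, 86.2 and 99.9 for HET and 89.2 and 94.4 for HOM, and ran from 89.95 to 99.99 CPM in DMSO and from 73.9 to 80.6 CPM in FGFRi, but counts over the whole gene do not part the deleted isoform from the rest of it and check nothing of the deletion. Judged by Xist and Y-linked genes, HOM libraries were female (2 of 2) and WT and HET libraries male (4 of 4), so that genotype and sex cannot be told apart in that cross. All 3 FGFRi libraries, DMSO 1 and DMSO 3 were female and DMSO 2 was male, so that the DMSO libraries were not all of the same embryo.

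Markers of epithelium and of other tissues differed between the groups. The summed level of 16 general epithelial genes moved from 2331 ± 161 CPM (DMSO) to 1737 ± 92.6 CPM (FGFRi; SD over 3 libraries each). In the cross it was 2322 ± 72.3 CPM for WT, 2043 ± 76.1 for HET and 1690 ± 66.7 for HOM (SD over 2 libraries each). Of these 16 genes 13 were lower with the inhibitor and 7 in HOM. The summed level of 16 mesenchymal genes was 2175 ± 74.0 CPM in DMSO, 4307 ± 770 in FGFRi, 2368 ± 76.5 in WT, 3561 ± 256 in HET and 3878 ± 93.0 in HOM. That of 14 skeletal muscle genes ran from 30.4 to 94.7 CPM in DMSO, from 194 to 861 in FGFRi, from 16.6 to 21.8 in WT, from 115 to 220 in HET and from 220 to 242 in HOM. Of 12 neuronal genes 5 rose with the inhibitor and 1 in HOM, and their sums ran from 65.5 to 250 CPM in DMSO, from 234 to 323 in FGFRi, from 170 to 238 in WT, from 195 to 203 in HET and from 268 to 298 in HOM. Of 10 Schwann cell genes 6 rose and 1 fell with the inhibitor and 4 rose in HOM, while their sums were 259 ± 26.1 CPM in DMSO, 226 ± 9.16 in FGFRi, 279 ± 5.33 in WT, 263 ± 5.80 in HET and 279 ± 5.09 in HOM. Of 10 endothelial and 10 myeloid genes at most 1 of a list was called in each direction of a comparison, and the endothelial sums ran from 7.32 to 10.6 CPM in DMSO, from 8.58 to 11.4 in FGFRi, from 11.2 to 11.3 in WT, from 16.9 to 31.2 in HET and from 22.5 to 26.0 in HOM. No gene of the epithelial, mesenchymal, muscle and neuronal lists was at 0 throughout a group. In bulk glands, fewer epithelial cells and less RNA per epithelial cell cannot be told apart, and the part of these shifts in the results that follow was not tested.

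A pair of repressor genes of the mesenchymal list were picked out after their values were seen, since their products bind the E-box printed above. Zeb1 was higher by 1.16 ± 0.13 on the log2 scale with the inhibitor (SE, edgeR adjusted p = 2.8e-05) and by 0.79 ± 0.12 in HOM (adjusted p = 0.00111). Zeb2 was higher by 1.56 ± 0.12 (adjusted p = 2.71e-06) and by 0.87 ± 0.11 (adjusted p = 0.000532). Both genes are expressed by mesenchyme, of whose list 14 of 16 genes rose with the inhibitor and 11 in HOM, and these bulk values do not say in which cells the change lay. Genes of the SNAI family were not in the lists read here, and a link from Zeb1 and Zeb2 to the polarity genes was not tested.

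With the FGF receptor inhibitor, RNA of 5 of the 10 polarity genes was lower and that of none was higher, on the TMM scale. The basolateral gene Llgl2 was at 0.655 times its DMSO level, the apical genes Crb3 and Pard6b at 0.697 and 0.726 times, Scrib at 0.803 times and the kinase gene Prkci at 0.856 times. Llgl1, Dlg1, Pard3, Prkcz and Lin7c did not pass the test. These 5 of 10 compare with 10.7% of all tested genes called lower, 9.73% called higher and 20.5% called in either direction. The median log2 change of the 10 genes was -0.17, and that of all genes tested was -0.015. Scaled instead so that the 16 epithelial genes had the same sum in every library, which moved the median of all genes to 0.41, none of the 10 was called lower and Llgl1, Dlg1, Pard3, Prkcz and Lin7c were called higher. That scaling called 49.5% of all genes higher and 1.19% lower, so 5 of 10 is near the share of all genes. Scaled to library totals, none was called in either direction, against 6.42% of all genes higher and 1.8% lower. Without FGFRi 1, the library with the largest ribosomal and mitochondrial share, 2 of the 10 were called, Llgl2 and Pard6b, and with those features removed from all libraries the count was 5.

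In HOM glands, RNA of 2 of the 10 genes was lower than in WT and HET glands and that of none was higher, on the TMM scale. These were Llgl2, at 0.756 times, and Prkci, at 0.797 times the control level, against a background of 2.44% of genes called lower, 3.44% higher and 5.88% in either direction. The median log2 change of the 10 genes was -0.16, against 0.00055 over all genes. Under the epithelial scaling, which moved the median of all genes to 0.36, neither was called and Llgl1, Scrib, Dlg1 and Pard3 were called higher, a share near the 43.6% of all genes called higher there (0.649% lower). With library totals none was called, against 3.38% of all genes higher and 0.605% lower. With sex as a covariate, 0 of the 10 were called in HOM, where 0.114% of all genes were higher and 0.177% lower. The covariate rests on DMSO 2, the only male of the only group with both sexes, so it cannot part sex from that library. With the inhibitor 1 was then called, Llgl2, against 6.55% higher and 7.03% lower. That fit is nearly the same as leaving out DMSO 2, where 1 was called as well.

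**Figure D1:**
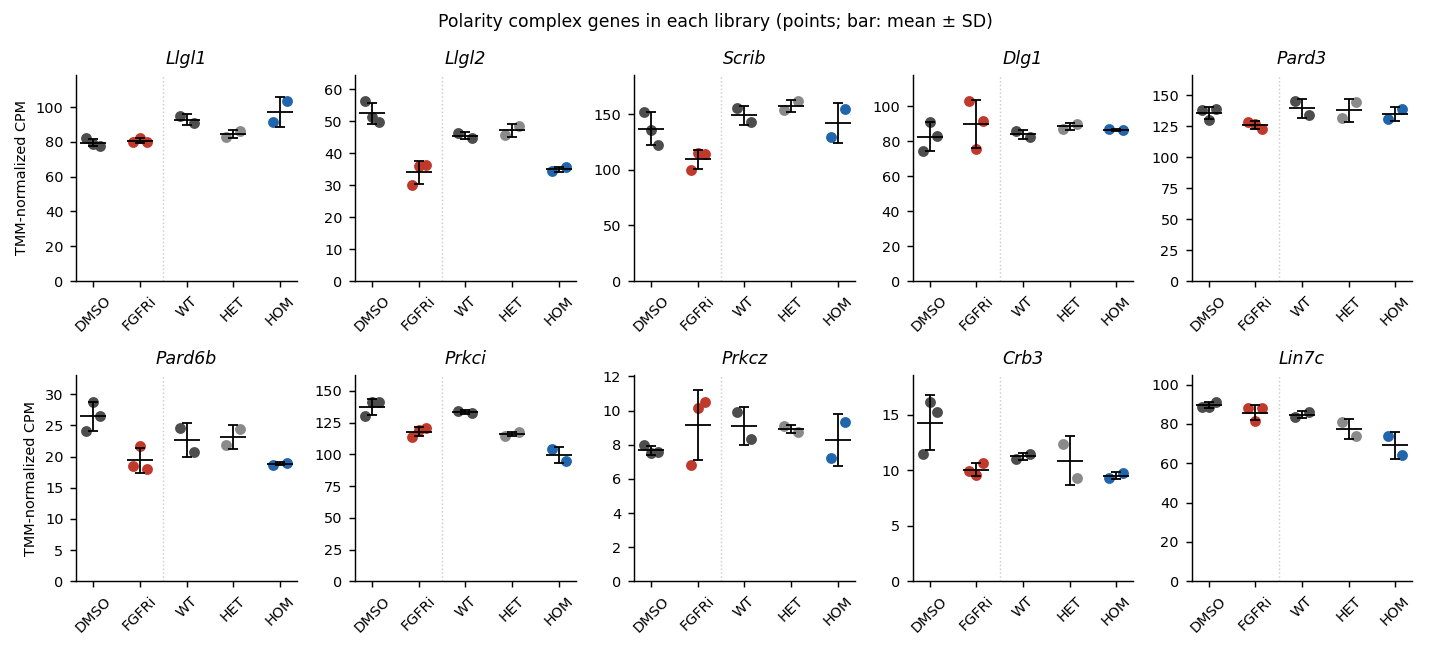
TMM-normalized CPM of each of the 10 polarity complex genes in each library (points), by group, with horizontal bars for the mean and whiskers for the SD (n = 3 for DMSO and FGFRi, n = 2 for WT, HET and HOM). Each axis starts at 0, and the dotted line parts the inhibitor experiment from the Fgfr2b cross. The Llgl2 points of FGFRi (29.9 to 36.2 CPM) and HOM (34.5 and 35.5 CPM) lie below all points of the control groups.

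Among these genes, levels per kilobase of exon fell into 3 steps. Over all 12 libraries they were highest for Prkci at 22.0 ± 2.60 CPM per kb, Scrib at 21.1 ± 3.13, Lin7c at 18.2 ± 1.78 and Llgl1 at 17.7 ± 1.59 (SD, n = 12). A middle step held Pard3 at 9.25 ± 0.49 CPM per kb, Llgl2 at 8.85 ± 1.69, Dlg1 at 8.04 ± 0.70, Crb3 at 7.27 ± 1.45 and Pard6b at 6.54 ± 1.02. Prkcz was lowest, at 1.36 ± 0.19 CPM per kb. Neighbours within a step differed by less than these SDs added together, whereas the gaps from Llgl1 to Pard3 and from Pard6b to Prkcz were larger than that. The exon length is the union of all annotated exons, which sets a gene low where annotated exons are rarely used, and exon use was not measured here.

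Llgl2 (ENSMUSG00000020782), an Lgl protein of epithelial tissue, changed furthest of the 10 with the inhibitor on the TMM scale, whereas Prkcz (0.72), Dlg1 (0.54) and others changed further in log2 under the epithelial scaling. Its level was 56.2, 51.2 and 49.9 CPM in DMSO 1 to 3 and 29.9, 35.9 and 36.2 CPM in FGFRi 1 to 3. Every FGFRi library was below every DMSO library, and the log2 change was -0.61 ± 0.09 (SE, edgeR adjusted p = 0.000255). That call was kept when any 1 of the 6 libraries was left out (adjusted p up to 0.00151). In the cross it was read at 46.2 and 44.9 CPM in WT, 45.7 and 48.5 in HET, against 34.5 and 35.5 in HOM. The 4 control libraries thus stood together and both HOM libraries below them, with a log2 change of -0.40 ± 0.09 (adjusted p = 0.0151). This call was lost without WT 1, HOM 1 or HOM 2 (adjusted p = 0.0659, 0.0988 and 0.145). Under the epithelial scaling the changes were -0.19 (adjusted p = 0.0891) and -0.040 (adjusted p = 0.729). Per 1000 CPM of the epithelial genes, Llgl2 stood at 22.5 ± 1.34 in DMSO, 19.5 ± 1.06 in FGFRi, 19.6 ± 1.03 in WT, 23.1 ± 1.81 in HET and 20.7 ± 0.37 in HOM.

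Its paralog Llgl1 (ENSMUSG00000020536), an Lgl protein of many tissues, gave no call in either comparison. It was at 82.0, 79.0 and 77.8 CPM in DMSO and at 80.2, 82.5 and 79.7 CPM in FGFRi, with a log2 difference of 0.022 ± 0.07 (edgeR adjusted p = 0.866, 95% interval -0.12 to 0.17). WT held it at 95 and 90.8 CPM, HET at 83 and 86.1 and HOM at 91.3 and 103, a difference of 0.14 ± 0.07 (adjusted p = 0.300). HOM overlapped WT but not HET. Exons of Llgl1 overlap those of Flii on the opposite strand. Whether reads were counted by strand is not given in the sources used here, and reads of the 2 genes may be mixed. Flii gave no call in either comparison (log2 differences of -0.13 and -0.047).

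Scrib (ENSMUSG00000022568), the scaffold after which the module is named, was read at 152, 135 and 122 CPM in DMSO and at 99.6, 115 and 114 CPM in FGFRi. The FGFRi libraries were all below the lowest DMSO library, with a log2 change of -0.32 ± 0.09 (edgeR adjusted p = 0.0253). Leaving out DMSO 1, DMSO 2, FGFRi 1 or FGFRi 2 in turn ended the call (adjusted p = 0.109, 0.0593, 0.155 and 0.0579). The direction turned to 0.11 under the epithelial scaling. In the cross, Scrib was at 155 and 143 CPM in WT, 154 and 161 in HET, against 129 and 155 in HOM. The HOM libraries spanned a wider range than the controls and overlapped them, and the difference was -0.11 ± 0.10 (adjusted p = 0.618).

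Dlg1 (ENSMUSG00000022770), a membrane-associated guanylate kinase scaffold of the lateral membrane, was at 74.3, 90.9 and 82.7 CPM in DMSO and 103, 75.6 and 91.4 CPM in FGFRi. The groups overlapped, and the log2 difference of 0.11 ± 0.10 did not pass (edgeR adjusted p = 0.495, 95% interval -0.10 to 0.32). It was steadier in the cross, at 85.7 and 82.1 CPM in WT, 87.2 and 89.7 in HET, against 86.9 and 86.2 in HOM. There the difference was 0.0054 ± 0.10 (adjusted p = 0.990, 95% interval -0.21 to 0.22), a value so close to 0 that its sign differed between settings.

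Among the paralogs of Dlg1, Dlg4 and Dlg2, scaffolds best known from synapses, rose with the inhibitor by 0.74 ± 0.13 and 1.30 ± 0.24 on the log2 scale (edgeR adjusted p = 0.000971 and 0.00162). Dlg4 was at 15.4, 11.8 and 13 CPM in DMSO and at 21.8, 25.3 and 19.3 CPM in FGFRi, without overlap. In untreated glands Dlg4 was at 20.1 and 18.6 CPM in WT and at 20.3 and 23.1 CPM in HET. These levels were near those of FGFRi and above every DMSO library, though the difference between DMSO and WT was not called. It was also higher in HOM, by 0.44 ± 0.12 (adjusted p = 0.0373), a call lost when any 1 library other than HET 2 was left out (adjusted p up to 0.327). Of the 12 neuronal genes 5 were called higher with the inhibitor and 1 in HOM, with sums that overlapped between DMSO and FGFRi, and their part in the rise of Dlg2 and Dlg4 was not tested. Dlg3 fell with the inhibitor by 0.31 ± 0.09 (adjusted p = 0.0180), which turned to 0.10 under the epithelial scaling and was no longer called (adjusted p up to 0.111) when DMSO 3, FGFRi 1 or FGFRi 2 was left out. Dlg5 gave no call in either comparison.

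Lrrc1, which encodes a close relative of Scrib also called Lano, followed Llgl2. It was at 46.2, 45.2 and 45 CPM in DMSO and at 30.8, 35.4 and 35.4 CPM in FGFRi, a change of -0.41 ± 0.08 on the log2 scale (edgeR adjusted p = 0.00219) that became 0.0039 under the epithelial scaling. In HOM its log2 change was -0.30 ± 0.08 (adjusted p = 0.0400), and this call was lost with any 1 library left out (adjusted p up to 0.327). Of 10709 genes with at least 5 CPM on average, those whose log2 level ran most like that of Llgl2 over the 12 libraries were Trim27, Lrrc1 and Tmem184a, with Pearson r of 0.988, 0.971 and 0.970. Among the rest of the 10 polarity complex genes, the likeness was highest for Pard6b, at r = 0.842. The 12 points share the treatment groups and the shift in epithelial content, so these values describe the libraries and carry no p. Erbin, another relative of Scrib, did not follow Llgl2 with the inhibitor. It was at 213, 235 and 229 CPM in DMSO and at 253, 239 and 247 CPM in FGFRi, and gave no call in either comparison.

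In the PAR complex, Pard6b and Prkci fell with the inhibitor, and Prkci was lower in HOM. Pard6b (ENSMUSG00000044641), the adaptor that ties Cdc42 to the kinase, was at 24.0, 28.8 and 26.4 CPM in DMSO and 18.5, 21.7 and 18.0 CPM in FGFRi. All FGFRi libraries were below all DMSO libraries, and the log2 change was -0.46 ± 0.11 (edgeR adjusted p = 0.00817), lost without DMSO 2 (adjusted p = 0.0593). Under the epithelial scaling it was -0.038. In the cross the gene was at 24.5 and 20.8 CPM in WT, 21.8 and 24.4 in HET, against 18.7 and 19.0 in HOM. Both HOM libraries were below the 4 controls, yet the difference of -0.28 ± 0.11 did not pass (adjusted p = 0.162).

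Prkci (ENSMUSG00000037643), atypical protein kinase C iota and the kinase that phosphorylates Lgl, was at 130, 141 and 141 CPM in DMSO and 114, 119 and 120 CPM in FGFRi. The groups did not overlap, and the log2 change was -0.22 ± 0.07 (edgeR adjusted p = 0.0260). The call ended when DMSO 2, DMSO 3, FGFRi 1 or FGFRi 2 was left out (adjusted p = 0.113, 0.0681, 0.150 and 0.10). In the cross Prkci was at 134 and 132 CPM in WT, 115 and 117 in HET, against 104 and 94.7 in HOM, so that the 3 genotypes stood in order without overlap. HOM differed from WT and HET by -0.33 ± 0.07 (adjusted p = 0.0118), from WT alone by -0.43 ± 0.08 (adjusted p = 0.00456) and from HET alone by -0.23 ± 0.08 (adjusted p = 0.218). HET differed from WT by -0.20 ± 0.08, which did not pass after adjustment (adjusted p = 0.282). The call against both controls was lost without WT 1 or HOM 2 (adjusted p = 0.0526 and 0.221). Under the epithelial scaling the directions turned, to 0.20 with the inhibitor and 0.041 in HOM.

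Prkcz (ENSMUSG00000029053), the zeta form of the kinase, was low throughout and gave no call. It was at 7.96, 7.49 and 7.55 CPM in DMSO and 6.79, 10.15 and 10.5 CPM in FGFRi, where FGFRi 1 stood below the DMSO libraries and FGFRi 2 and 3 above them. The log2 difference was 0.30 ± 0.17 (edgeR adjusted p = 0.244). In the cross it was at 9.89 and 8.32 CPM in WT, 9.08 and 8.76 in HET, against 7.20 and 9.35 in HOM, a difference of -0.11 ± 0.17 (adjusted p = 0.792). Its 37 to 190 reads per library in the inhibitor experiment limit the precision, and the 95% interval there ran from -0.067 to 0.67.

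Pard3 (ENSMUSG00000025812), the scaffold at the junction, was at 139, 130 and 139 CPM in DMSO and 128, 127 and 123 CPM in FGFRi. The FGFRi libraries lay just below the lowest DMSO library, but the log2 difference of -0.11 ± 0.07 did not pass (edgeR adjusted p = 0.303, 95% interval -0.25 to 0.039). Levels in the cross were 145 and 134 CPM in WT, 131 and 144 in HET, against 131 and 139 in HOM, with a difference of -0.041 ± 0.07 (adjusted p = 0.827). Its paralog Pard3b, a related scaffold, rose with the inhibitor by 0.62 ± 0.10 (adjusted p = 0.000557). Pard3b was at 15.9, 19.4 and 17.7 CPM in DMSO and 30.3, 26.6 and 26.5 CPM in FGFRi, and its difference in HOM was 0.21 ± 0.10 (adjusted p = 0.247). The paralogs of Pard6b, Pard6a and Pard6g, and the GTPase gene Cdc42 gave no call in either comparison.

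In the Crumbs complex, Crb3 fell with the inhibitor and Lin7c gave no call in either main comparison. Crb3 (ENSMUSG00000044279), the Crumbs protein of most epithelia, was at 11.5, 16.2 and 15.3 CPM in DMSO and 9.91, 9.61 and 10.7 CPM in FGFRi. The groups did not overlap, though DMSO 1 stood close to FGFRi, and the log2 change was -0.52 ± 0.15 (edgeR adjusted p = 0.0224). DESeq2 did not call it (adjusted p = 0.0559). The edgeR call ended when DMSO 2, DMSO 3, FGFRi 1 or FGFRi 2 was omitted (adjusted p = 0.139, 0.0516, 0.0813 and 0.0933), and the change was -0.097 under the epithelial scaling. In the cross Crb3 was at 11.1 and 11.5 CPM in WT, 12.4 and 9.33 in HET, against 9.28 and 9.72 in HOM. HET 2 lay among the HOM libraries, and the difference was -0.22 ± 0.15 (adjusted p = 0.486). Crb3 rested on 54 to 311 reads per library in the inhibitor experiment. Its exons overlap those of Dennd1c on the opposite strand, a gene of 0.865 to 4.89 CPM whose reads may be mixed with its own. Dennd1c differed by -0.42 ± 0.31 with the inhibitor and by 0.36 ± 0.35 in HOM on the log2 scale, neither of which was called (edgeR adjusted p = 0.381 and 0.643).

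Lin7c (ENSMUSG00000027162) was at 88.5, 88.8 and 91.3 CPM in DMSO and 87.9, 81.5 and 87.9 CPM in FGFRi, a log2 difference of -0.062 ± 0.07 (edgeR adjusted p = 0.613, 95% interval -0.22 to 0.095). Among the genotypes it was at 83.6 and 86.0 CPM for WT, 81.2 and 73.8 for HET and 73.9 and 64.3 for HOM. HOM 1 was level with HET 2, and the difference of -0.23 ± 0.08 did not pass (adjusted p = 0.0899). Among its partners, Patj, a multi-PDZ scaffold of the Crumbs complex, fell with the inhibitor by 0.28 ± 0.08 (adjusted p = 0.0270), which turned to 0.13 under the epithelial scaling and was no longer called (adjusted p up to 0.146) when DMSO 2, DMSO 3, FGFRi 1 or FGFRi 2 was left out. Pals1, which joins Crb3 to Patj and Lin7c, gave no call in either comparison (log2 differences of -0.19 and -0.19). Mpp7, a partner of Dlg1 and of Lin7 proteins, gave no call in either comparison as well. It was at 32.1 and 31.7 CPM in WT, 27.4 and 30.6 in HET, against 23.7 and 19.2 in HOM, without overlap, while DMSO and FGFRi overlapped. Lin7a, a paralog of Lin7c, was at 0.478, 0.104 and 0 CPM in DMSO and at 1.28, 2.27 and 1.11 CPM in FGFRi, from 3, 2 and 0 reads and from 7, 21 and 20 reads. It passed the filter on low counts only through the FGFRi libraries, so that it had to be higher there, and its call is no support for a rise. Crb1, Crb2 and Lin7b were too low to be tested.

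**Figure D2:**
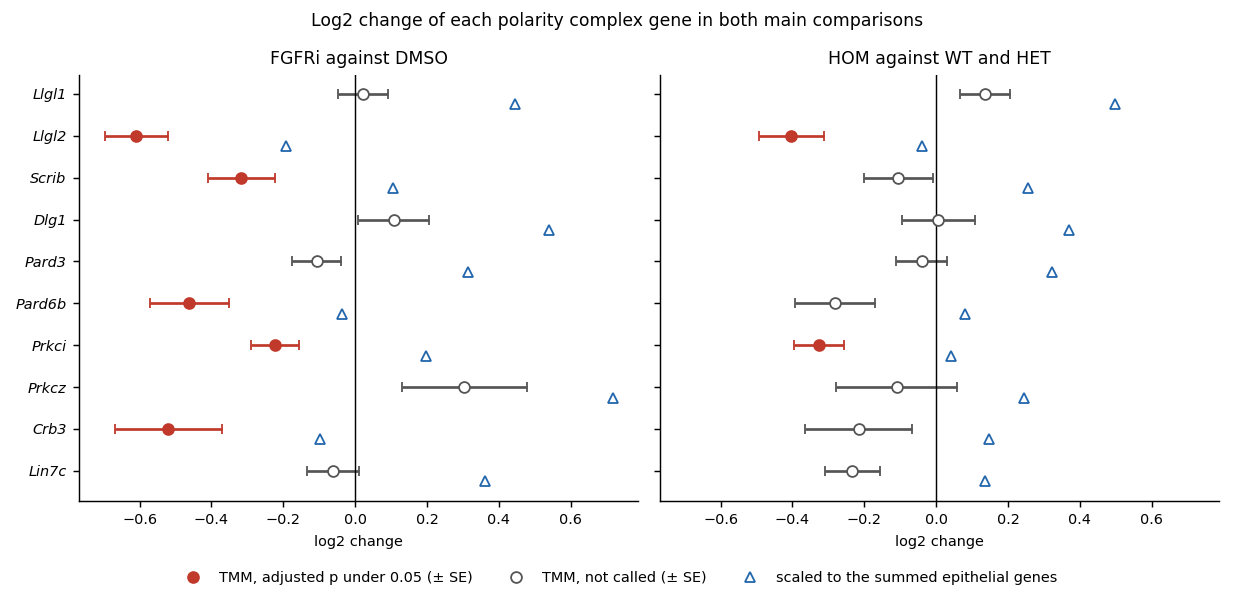
Log2 change of each polarity gene with the inhibitor (left) and in HOM glands (right), as circles with bars of ± SE under TMM, filled where the adjusted p was under 0.05. Triangles give the same change after scaling to the summed epithelial genes, which moves every gene to the right, so that Llgl2 goes from -0.61 to -0.19 with the inhibitor and from -0.40 to -0.040 in HOM.

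Ratios of 2 genes in the same library do not depend on how libraries are scaled, and 5 pairs were compared in each experiment, 10 comparisons in all. With 3 libraries against 3 the exact permutation test cannot go below p = 0.1, and with 2 against 4 not below 0.0667, so none could pass 0.05. The ratio of Llgl2 to Llgl1 was 0.685, 0.649 and 0.641 in DMSO and 0.373, 0.435 and 0.454 in FGFRi. Its log2 difference was -0.65 (exact permutation p = 0.1, two-sided, adjusted p = 0.2 over the 10). In the cross this ratio was 0.487 and 0.494 for WT, 0.551 and 0.563 for HET and 0.377 and 0.344 for HOM, a difference of -0.54 (exact permutation p = 0.06667, adjusted p = 0.2). Both groups stood apart from their controls at the smallest p the design allows.

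The ratio of Pard3 to Pard6b was also apart in both experiments. It was 5.77, 4.51 and 5.25 in DMSO and 6.93, 5.85 and 6.82 in FGFRi, a log2 difference of 0.34 (exact permutation p = 0.1). In the cross it was 5.92 and 6.47 for WT, 6.03 and 5.91 for HET and 6.99 and 7.32 for HOM, a difference of 0.24 (exact permutation p = 0.06667, adjusted p = 0.2). Crb3 to Lin7c was lower with the inhibitor without overlap, by a log2 difference of -0.43 (exact permutation p = 0.1), and differed by 0.021 in the cross (exact permutation p = 1). Prkci to Prkcz differed by -0.45 and -0.19 and Scrib to Dlg1 by -0.43 and -0.12, with overlap in both experiments (exact permutation p from 0.2 to 0.4667). A pair of genes expressed unequally in epithelium and mesenchyme would shift its ratio with the tissue mix, whose part in these ratios was not tested.

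**Figure D3:**
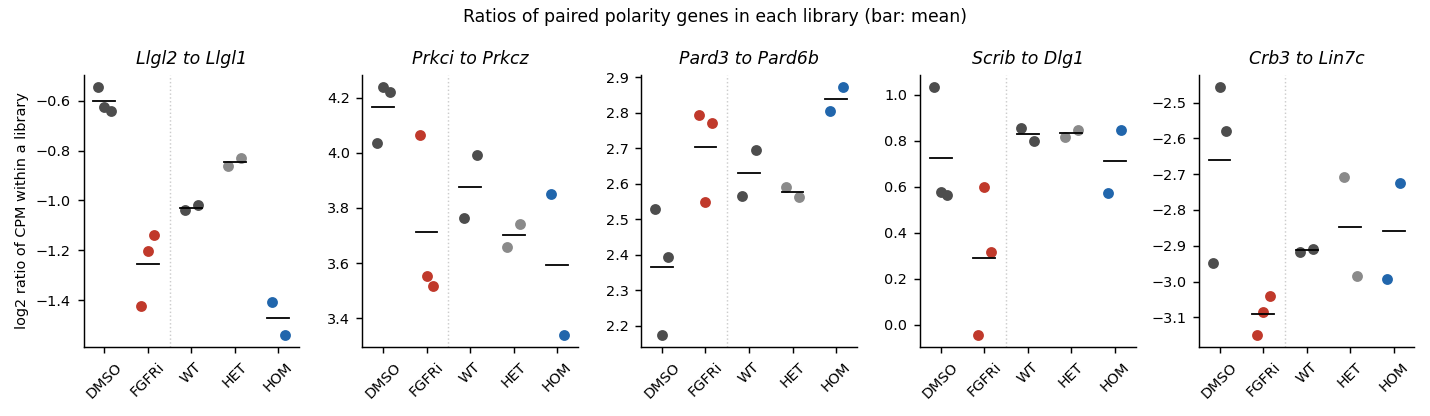
Log2 ratio of 5 pairs of polarity genes within each library (points; horizontal bar, mean of the group), with axes that do not start at 0. For Llgl2 to Llgl1 the FGFRi points (-1.42 to -1.14) lie below DMSO (-0.64 to -0.54), and the HOM points (-1.54 and -1.41) below WT and HET (-1.04 to -0.83).

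The genotypes of the control glands and the solvent were compared next. Between HOM and WT alone, edgeR called 2 of the 10 genes, Llgl2 and Prkci, where it called 7.56% of all genes. DESeq2 and limma-voom each called 3, these 2 and Lin7c. The Lin7c difference there was -0.30 ± 0.09 (edgeR adjusted p = 0.0520). Llgl2 differed there by -0.38 ± 0.10 (edgeR adjusted p = 0.0357). Between HOM and HET alone, edgeR called 0 of the 10, against 1.49% of all genes. At an unadjusted p under 0.05 it gave 4 of the 10, against 1983 of all 15859 genes. DESeq2 and limma-voom each called 1, Llgl2. Its difference there was -0.43 ± 0.10 (edgeR adjusted p = 0.0519). Between HET and WT, 0 of the 10 were called by edgeR, DESeq2 or limma-voom, against 1.22% of all genes by edgeR. At an unadjusted p under 0.05 edgeR gave 1, Prkci, against 2144 of all 15859 genes. WT and HET served as controls for HOM in these comparisons, which therefore share libraries.

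DMSO glands and untreated WT glands differ in the solvent and belong to separate experiments, and 0 of the 10 genes were called between them by the 3 tools, against 2.26% of all genes by edgeR. By edgeR 2 had an unadjusted p under 0.05, against 2227 of all 15859 genes. These were Llgl1 at -0.22 ± 0.08 (edgeR adjusted p = 0.160) and Crb3 at 0.37 ± 0.16 (adjusted p = 0.316). The effect of the inhibitor was also set against that of the deletion, as the difference between both log2 changes. For 0 of the 10 genes was this difference called in edgeR, against 2.77% of all genes, and DESeq2 and limma-voom called 0 as well. At an unadjusted p under 0.05 edgeR gave 0 of the 10, against 2629 of all 15859 genes. The test does not show that both effects are alike. The widest 95% intervals were those of Prkcz, from -0.10 to 0.93, and Crb3, from -0.75 to 0.15, and for Llgl2 the difference was -0.21 with an interval from -0.47 to 0.058.

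Other polarity genes were read from 3 lists. With the inhibitor, of 14 tested further subunits 4, Lin7a among them, rose and 3 fell (median log2 change 0.075), of 19 kinases and regulators 1 rose and 6 fell (median -0.040), and of 17 genes of the apical membrane and its transport 4 rose and 8 fell (median -0.18), where 9.73% of all genes rose and 10.7% fell. Under the epithelial scaling the counts were 8 and 0, 12 and 1, and 8 and 2, against 49.5% and 1.19% of all genes. In HOM, 1 rose and 1 fell of the subunits, 1 and 3 of the regulators, and 0 and 5 of the apical genes, with medians of -0.075, -0.078 and -0.26, where 3.44% of all genes rose and 2.44% fell. The epithelial scaling turned these to 5 and 0, 11 and 0, and 3 and 0, against 43.6% and 0.649% of all genes. Scaled to library totals, the counts were 4 and 0, 0 and 1, and 4 and 3 with the inhibitor (6.42% and 1.8% of all genes), and 0 and 0, 1 and 0, and 0 and 0 in HOM (3.38% and 0.605%). With the sex covariate, which rests on DMSO 2, they were 3 and 2, 1 and 2, and 3 and 8 with the inhibitor (6.55% and 7.03% of all genes). In HOM they were 0 throughout (0.114% and 0.177%). Several of these counts lie near the shares of all genes. Lin7a is among the 14 tested subunits, but it passed the filter on low counts only through the FGFRi libraries. It had to be higher there, and its place in the counts is no support for a rise of the subunits.

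Among the apical genes, Podxl and Prom2 fell furthest with the inhibitor. Podxl, the sialomucin podocalyxin of the free apical surface, was at 28.2, 25.1 and 21.2 CPM in DMSO and 11.7, 11.8 and 14.2 CPM in FGFRi, a log2 change of -0.96 ± 0.13 (edgeR adjusted p = 0.000176). Prom2, a pentaspan protein of membrane protrusions, was at 40.9, 36.6 and 31.4 CPM and at 11.9, 19.1 and 23.1 CPM, a change of -0.95 ± 0.16 (adjusted p = 0.00104). Both stayed called under the epithelial scaling, at -0.54 and -0.54 (adjusted p = 0.00275 and 0.00845), and both calls were kept with any 1 library left out. Rab11fip1, an effector of Rab11 in apical recycling, fell by 0.50 ± 0.09 (adjusted p = 0.00185) and Ezr, the actin linker ezrin, by 0.43 ± 0.09 (adjusted p = 0.0024), of which -0.077 and -0.018 were left under the epithelial scaling.

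Msn, the ezrin relative moesin, which mesenchymal and endothelial cells also express, was at 22.9, 19.0 and 25.4 CPM in DMSO and 53.6, 40.5 and 38.4 CPM in FGFRi, a rise of 0.98 ± 0.14 on the log2 scale (edgeR adjusted p = 0.000256). Anxa2, an annexin of apical membrane and many other sites, rose by 0.72 ± 0.11 (adjusted p = 0.000275). Ezrin and moesin thus moved in opposite directions on the TMM scale, beside the lower epithelial and higher mesenchymal sums.

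In HOM the lower apical genes included Myo5b, the motor of Rab11 vesicles, at 44.4 and 49.5 CPM against 67.7 and 68.3 in WT and 67.9 and 69.2 in HET. Its log2 change was -0.54 ± 0.09 (edgeR adjusted p = 0.00247). Rab11fip1 was at 47.3 and 52.3 CPM in HOM, below 78.6 and 79.4 in WT and 69.6 and 69.1 in HET, a change of -0.57 ± 0.10 (adjusted p = 0.00312). Both calls were kept with any 1 library left out (adjusted p up to 0.0475), and under the epithelial scaling the changes were -0.17 and -0.21. Podxl fell by 0.62 ± 0.12 (adjusted p = 0.00839), a call lost without HOM 1 or HOM 2. It was at 22.5 and 23.9 CPM in HOM, against 36.5 and 47.3 in WT and 30.7 and 30.3 in HET. The wild-type DMSO glands of the other experiment, at 21.2 to 28.2 CPM, stood at the level of HOM and below WT. Prom1, a pentaspan protein related to Prom2, fell by 0.72 ± 0.17 (adjusted p = 0.0194), lost without WT 2, HET 1, HOM 1 or HOM 2 (adjusted p up to 0.282).

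Of the regulators, Mark1, whose kinase family phosphorylates Pard3 at the basolateral side, was higher in both experiments. It was at 31.4, 33.0 and 34.1 CPM in DMSO and 47.3, 44.7 and 46.6 CPM in FGFRi, a rise of 0.49 ± 0.08 (edgeR adjusted p = 0.00047). In the cross it was at 41.0 and 37.9 CPM in WT, 40.3 and 41.8 in HET, against 62.1 and 59.5 in HOM, a rise of 0.59 ± 0.07 (adjusted p = 0.000442). Both calls were kept with any 1 library left out, and the direction was the same under every scaling run. The FERM proteins Epb41l5, which antagonizes or supports Crumbs by context, and Epb41l4b were lower in HOM by 0.48 ± 0.10 each (adjusted p = 0.0112 and 0.0106), both lost without HOM 2 (adjusted p = 0.281 and 0.178). With the inhibitor their changes were -0.32 and -0.29 (adjusted p = 0.0324 and 0.0408), which turned to 0.11 and 0.13 under the epithelial scaling.

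Wwc1, the scaffold KIBRA that binds atypical protein kinase C, had the smallest p of these lists with the inhibitor. It was at 186, 207 and 190 CPM in DMSO and 86.1, 96.0 and 111 CPM in FGFRi, without overlap, a log2 change of -0.98 ± 0.09 (edgeR adjusted p = 4.87e-06). The change was -0.56 under the epithelial scaling. In HOM it was at 136 and 138 CPM, below 173 and 168 in WT and 173 and 181 in HET, a change of -0.34 ± 0.09 (adjusted p = 0.0338) that was lost with any 1 library left out (adjusted p up to 0.230) and became 0.023 under the epithelial scaling.

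**Figure D4:**
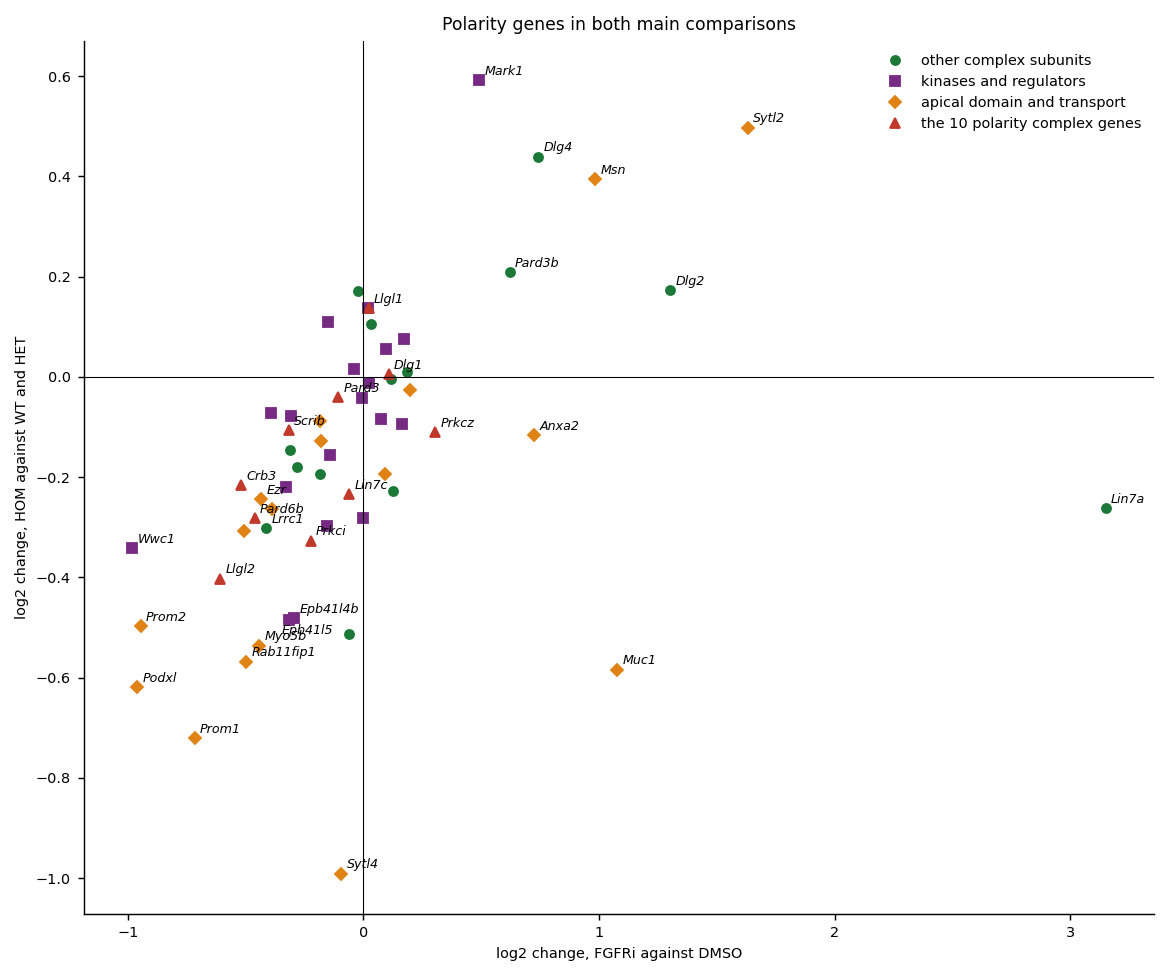
Log2 change in HOM against WT and HET (vertical) plotted against log2 change in FGFRi against DMSO (horizontal), under TMM, for the 10 polarity genes (triangles) and the tested genes of the 3 other lists. Podxl, Prom1, Prom2 and Wwc1 lie low on both axes, Mark1, Msn, Dlg4 and Sytl2 high on both, and Lin7a and Muc1 lie to the right and below 0.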

How the data were processed

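The values are raw read counts per gene as deposited by the authors, with no normalization. Per the submitters' processing notes, bcl2fastq, STAR and the genome build GRCm39 were used. Their versions, the program that counted reads, its strand setting and its annotation were not given in the sources used here. NEBNext libraries were made after removal of ribosomal RNA, per the labels. Symbols came from GENCODE identifiers, which named 52403 of 52636 genes, and exon lengths from the same annotation of the earlier build.

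Counts were fitted in R 4.3.3 with edgeR 4.0.16 (TMM, filterByExpr with minimum count 10 and minimum total 15, quasi-likelihood F test, all 12 libraries, 1 coefficient per group, no covariate, 7 residual degrees of freedom). P-values were two-sided, with Benjamini-Hochberg adjustment over the 15859 genes tested. Total counts per library bound the precision, and reads without molecular identifiers are not independent molecules. Alternatives used DESeq2 1.42.0, limma 3.58.1 (voom), other scalings, filters and libraries; the epithelial scaling sets the summed counts of 16 epithelial genes equal. The model was tested on simulated data.

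The 10 genes and all lists were chosen with earlier results of these data known. Named are all 10 genes, their paralogs and partners, from the other lists up to 6 called genes per direction and comparison in order of p, and the 3 genes most like Llgl2.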

Additional observations from a re-analysis of the deposited data

Results flagged for a closer look

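The log2 difference with the inhibitor and that in HOM were unequal for 2 of 60 tested polarity genes, by a test of the difference between them (edgeR quasi-likelihood, Benjamini-Hochberg over all genes tested). These 3.33% are near the 2.77% of all genes called by that test. For Wwc1, which encodes the KIBRA scaffold, the change was -0.98 with the inhibitor and -0.34 in HOM, a difference of -0.64 ± 0.12 (SE, adjusted p = 0.0116), with all 3 FGFRi libraries and both HOM libraries below their controls. For Anxa2, which encodes annexin A2, it was 0.72 with the inhibitor and -0.12 in HOM (adjusted p = 0.639, not called), a difference of 0.84 ± 0.15 (adjusted p = 0.00888). All 3 FGFRi libraries of Anxa2 were above all DMSO libraries (168 to 202 CPM against 92.2 to 123), and both HOM libraries (106 and 116 CPM) were below WT 1, HET 1 and HET 2 but not both below WT 2. None of the 10 polarity complex genes passed this test.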

How the results depend on the processing

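With the inhibitor, the count of called polarity genes (5) was 2 in a fit of the compared groups only and 0 with library totals. With the epithelial scaling it was again 5, but all were higher, and 0 of the 5 main calls were kept. It was 1 with the sex covariate and 1 to 5 with 1 library left out (1 without DMSO 2, 2 without FGFRi 1 or FGFRi 2). The sex covariate rests on DMSO 2, so with the inhibitor it is no check separate from the fit without that library. In HOM, the count (2) was 0 with HET alone as controls, 4 (all higher) with the epithelial scaling, 0 with library totals, 1 without a filter, 0 with the sex covariate and 0 to 2 with 1 library left out (0 without WT 1 or HOM 2, 1 without HOM 1). The count of all genes called with the inhibitor (3245) was 8044 with the epithelial scaling, 1303 with library totals, 2153 with the sex covariate and 1896 to 3099 with 1 library left out. In HOM the count (933) was 237 with HET alone, 1406 in the compared groups only, 7025 with the epithelial scaling, 1449 without a filter, 46 with the sex covariate and 140 to 658 with 1 library left out. The cause was not tested.

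Replicate numbers gave no sign of pairing with the inhibitor. Same-numbered DMSO and FGFRi libraries had deviations from their group means correlated at -0.094, -0.109 and -0.052, and different-numbered ones at -0.067 to 0.161. Deviations from a mean of 3 libraries are tied to each other, so this does not exclude pairing. In the cross, with 2 libraries per group, the values are mirror images by construction and cannot decide it. With the replicate number as a block, 3 polarity genes were called with the inhibitor, the calls of Scrib and Prkci being lost (adjusted p = 0.0660 and 0.0677), and 2 in HOM.

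Directions turned as follows. With the inhibitor, the epithelial scaling gave Lin7c 0.36, Pard3 0.31, Prkci 0.20 and Scrib 0.11. In HOM it gave Crb3 0.15, Lin7c 0.14, Pard3 0.32, Pard6b 0.080, Prkci 0.041, Prkcz 0.25 and Scrib 0.25, and the sex covariate gave Crb3 0.062. Also in HOM, Dlg1 was -0.00014 with DESeq2 or its size factors, -0.032 with HET alone, -0.0044 without HET 1 and -0.0013 without HOM 1. Pard3 was 0.10 with library totals, 0.00084 without HOM 1 and 0.0028 without WT 1, Prkcz was 0.032 with library totals and 0.047 without HOM 1, and Scrib was 0.039 with library totals and 0.015 without HOM 1.

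With 1 library left out, log2 ratio differences ranged as follows with the inhibitor and in HOM: Llgl2 to Llgl1 from -0.71 to -0.57 and from -0.60 to -0.47, Pard3 to Pard6b from 0.24 to 0.42 and from 0.20 to 0.27, Crb3 to Lin7c from -0.57 to -0.33 and from -0.11 to 0.16, Prkci to Prkcz from -0.63 to -0.36 and from -0.45 to 0.062, and Scrib to Dlg1 from -0.59 to -0.27 and from -0.26 to 0.017. Crb3 to Lin7c turned to -0.11 without HOM 2 and to -0.014 without HET 2. Over the fits without 1 library, the HOM changes ran from -0.25 to 0.015 for Scrib, from -0.0044 to 0.035 for Dlg1, from -0.088 to 0.0028 for Pard3 and from -0.33 to 0.047 for Prkcz. Depth limits Prkcz and Crb3 most, the genes with the fewest reads.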
